A study of Mus musculus with 4 samples.

Results

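The genes described here act in the Fanconi anemia pathway and in homologous recombination, and were followed after knockdown of the deubiquitylase USP9X in ID8 cells, a mouse ovarian cancer cell line. The 37 genes were taken by symbol from a list of names, out of 22063 genes in the expression table. RNA was sequenced from 2 libraries of ID8 cells with a control shRNA (shCtrl, genotype given as WT) and 2 libraries with an shRNA against USP9X (shUSP9X). All cells are of the same line, no treatment is labelled for either group, the shRNA used is not named, and nothing labelled says whether the replicates came from separate cultures, so that p-values measure only the spread between these libraries, which may be technical. Library totals were 17232006 and 15611363 estimated counts in shCtrl and 19978889 and 17021261 in shUSP9X.

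Fanconi proteins recognise DNA crosslinks that block replication forks. A core complex of Fanconi proteins, anchored on DNA by FANCM, attaches ubiquitin to the FANCD2 and FANCI clamp, and nucleases then unhook the crosslink. The broken strand is repaired by homologous recombination: the MRN complex (MRE11, RAD50 and NBN) and CtIP start to trim the break ends, ATM and ATR signal the damage, and BRCA1, PALB2 and BRCA2 prepare the trimmed end for pairing with the intact sister strand. These genes are known in ovarian cancer because tumours that lose BRCA1 or BRCA2 are sensitive to platinum drugs and PARP inhibitors.

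The knockdown was present in the libraries labelled shUSP9X. The counts of Usp9x were 5169 and 4453 under shCtrl but 390 and 346 under shUSP9X, a log2 fold change of -3.85 (SE 0.058, adjusted p = 4.7e-26 by the quasi-likelihood test of edgeR, adjusted over all genes tested). It was -2.58 in the fit, described below, that removes a trend on GC content and length (the trend-adjusted fit). The libraries had the markers of the line's origin from ovarian surface epithelium. Krt19 had 12190, 11246, 15535 and 12647 counts and Wt1 6210, 5892, 5070 and 4253, in the order shCtrl 1, shCtrl 2, shUSP9X 1 and shUSP9X 2, the order of all values below. Krt7, Epcam and Pax8 were absent or nearly so, with at most 9 counts in any library. Cdh1 had 57, 26, 52 and 53 counts. Of 7 such markers tested 2 fell and 3 rose, beside 33.6% and 33.8% of all genes tested. In the trend-adjusted fit 4 fell and 2 rose. Krt8 and Krt18 rose by 0.918 and 0.645 (0.636 and 0.317 in the trend-adjusted fit). Wt1 and Msln fell, at -0.52 and -0.47 (both -0.73 in the trend-adjusted fit).

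Markers of leukocytes differed between the groups. Of 8 such markers 5 had enough counts to be tested, and they passed that filter only through the shUSP9X libraries, so that their direction was fixed by it and their number is no result. Ptprc had 0 counts in both shCtrl libraries and 29 and 18 in the shUSP9X libraries, and Itgam 0 and 0 against 72 and 75. The summed FPKM of the list was 0.047, 0.209, 5.39 and 4.92, and its most abundant gene in shUSP9X was Cd74 at 1.98 and 2.12 FPKM. Cd3e and H2-Ab1 were at 0 in all libraries and Lyz2 at no more than 2 counts. FPKM is a fragment count scaled for transcript length and library depth. Among endothelial markers Cdh5 and Kdr were at 0, and 1 of the 2 markers tested fell (Tek, by 0.80 on the log2 scale). The summed FPKM of that list was 2.43, 2.85, 1.62 and 1.68, of which Tek made up 2.23, 2.44, 1.24 and 1.39. Among fibroblast markers Pdgfrb, Lum and Thy1 were at 0, and all 3 markers tested fell, where 33.6% of all genes tested fell. Their log2 fold changes were -2.87 for Pdgfra, -1.72 for Col1a1 and -0.46 for Dcn, with -2.67, -1.80 and -0.22 in the trend-adjusted fit. The summed FPKM of the fibroblast list was 113.8, 113.1, 73.55 and 72.19, with Dcn the most abundant gene in every library. The part of these markers in the results below was not tested, and in bulk RNA fewer cells of a type and less RNA per cell cannot be told apart.

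More of the Fanconi and recombination genes fell after USP9X knockdown than rose. All 37 passed the filter on low counts and were tested. At an adjusted p under 0.05, 17 fell, 5 rose and 15 did not pass. Of all 11448 genes tested, 33.6% fell and 33.8% rose by the same rule, against 45.95% and 13.51% of the 37. The median log2 fold change of the 37 was -0.26 and that of all genes tested -0.00. A fall of 1 or more on the log2 scale was seen in 7 of the 37, beside 10.4% of all genes, and a rise of 1 or more in 0 of the 37, beside 3.41%. The study states in its methods a cutoff of a fold change above 1.5 with a p under 0.05, used with DESeq2. With that cutoff on the unadjusted p of edgeR, 13 fell and 1 (Fance) rose, beside 18.7% and 10.8% of all genes. The summed FPKM of the 37 was 430.9, 439.6, 318.7 and 316.0, so the sum was smaller in both shUSP9X libraries. That of all genes tested was 4.671e+05, 4.631e+05, 4.974e+05 and 4.955e+05, larger in both. Abundant genes weigh most in the sum of the 37, such as Topbp1 at 71.5, 80.2, 37.9 and 37.2 FPKM.

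The fold changes in these libraries moved with base composition and transcript length. Across all genes tested, split into 10 equal bins by GC content, the bin with the lowest content (31.9 to 41.7% of transcript bases) had a median log2 fold change of -0.88 and the bin with the highest content 0.18. In 10 bins by transcript length the longest had a median of -0.44 and the shortest 0.27. Of the 37 genes, 6 lay in the bin with the lowest GC content, and 5 of them fell. The genes that fell had a median GC content of 43.9% and a median transcript length of 5153 bases, against 49.2% and 3025 bases for those that did not pass. The 5 genes that rose had a median GC content of 47.3% and a median length of 4485 bases, which is nearer to the length of those that fell, and all genes tested 50.1% and 3192 bases. Spearman's rho between GC content and log2 fold change was 0.70 across the 37 genes and 0.45 across all genes, where all points come from the same 4 libraries and genes are not independent. For most genes named below the fold change is therefore given also from a fit with an offset that removes each library's trend on GC content and length, called the trend-adjusted fit below. In that fit 15 of the 37 fell and 6 rose, beside 29.7% and 32.7% of all genes, and the median of the 37 was -0.19. Of the 17 genes that fell, 12 fell in the trend-adjusted fit too, and 4 of the 5 that rose did so, beside 2612 of the 3843 that fell and 2785 of the 3864 that rose among all genes. The part of base composition in these falls was not tested beyond this offset.

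**Figure D1:**
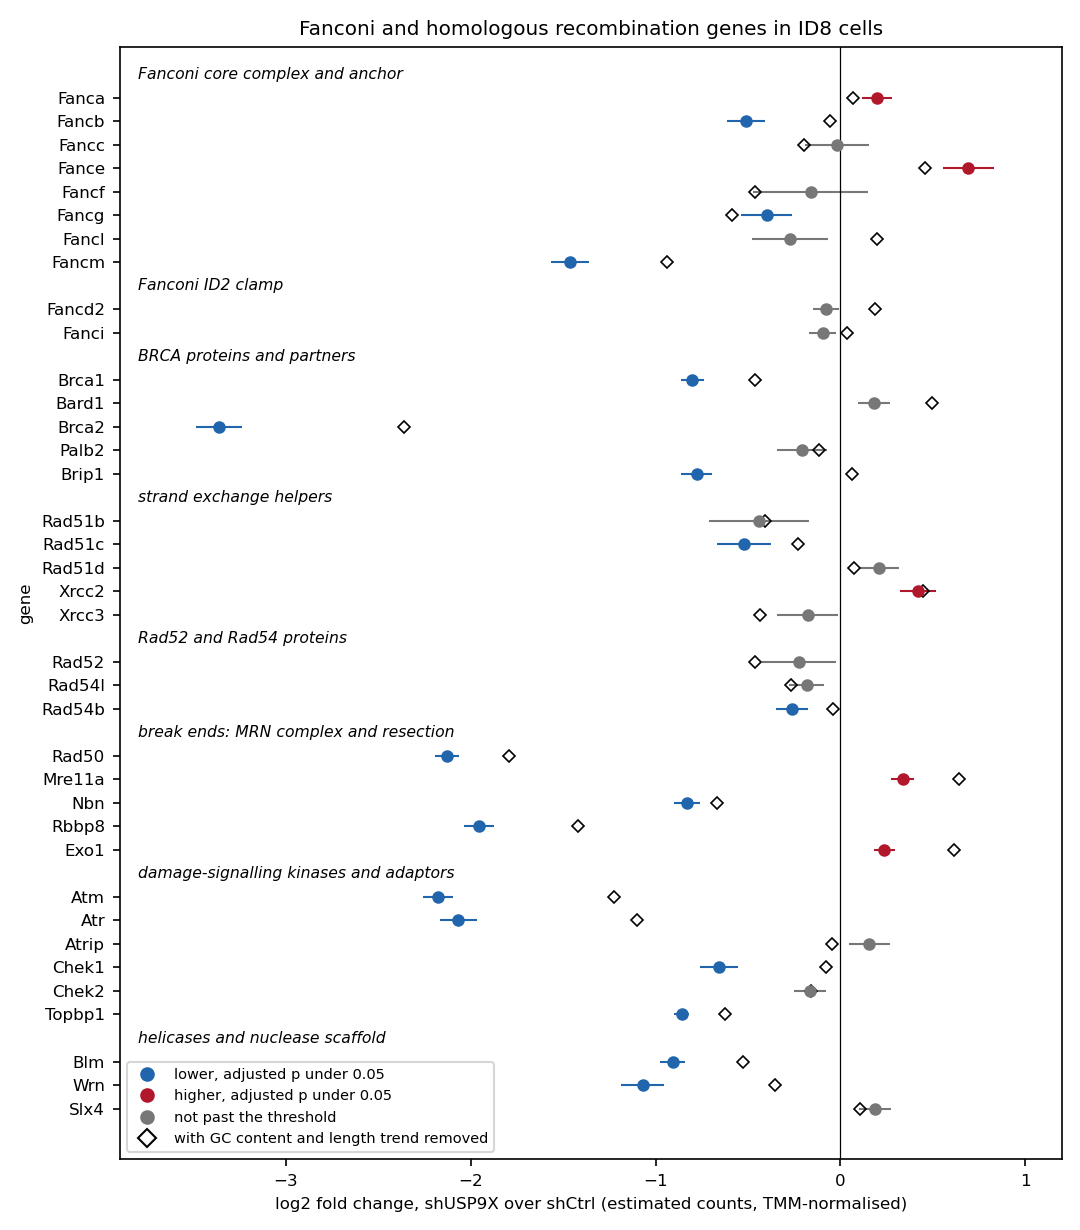
The log2 fold change of each gene (shUSP9X over shCtrl, horizontal axis) by role, from estimated counts of 2 libraries a group. Filled points are fold changes with their standard error, coloured by whether the adjusted p was under 0.05, and open diamonds are the same genes with the trend on GC content and length removed. Brca2 lies farthest to the left at -3.36, and most diamonds of the genes that fell lie nearer to 0 than their points.

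BRCA2, which acts on the trimmed single-stranded end, had the largest change of the 37 genes. Brca2 (chr5:150522630-150570329, plus strand, GRCm38) had 733, 631, 77 and 69 counts, or 4.03, 3.83, 0.382 and 0.378 FPKM. The groups were far apart, with a 10.3-fold lower level in shUSP9X (log2 fold change -3.36, SE 0.12, adjusted p = 1.8e-18 by edgeR). In the trend-adjusted fit the log2 fold change was -2.36 (SE 0.13, adjusted p = 6.7e-15). PALB2, which bridges BRCA1 and BRCA2, did not pass: Palb2 had 3.54, 3.57, 2.92 and 3.85 FPKM, with a log2 fold change of -0.21 (adjusted p = 0.17 by edgeR, with -0.12 in the trend-adjusted fit), and its shUSP9X libraries lay on both sides of the shCtrl libraries on that scale. The ratio of Brca2 to Palb2 FPKM was 1.14 and 1.07 in shCtrl and 0.131 and 0.0982 in shUSP9X. The difference between their log2 fold changes was -3.16, and it was -2.24 in the trend-adjusted fit.

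Brca1 fell as well, and its partner did not. BRCA1 forms a ubiquitin ligase with BARD1 and promotes the trimming of break ends. Brca1 had 12.9, 13.4, 7.51 and 7.599 FPKM, the highest of this group in every library, and a log2 fold change of -0.80 (SE 0.061, adjusted p = 7.0e-12 by edgeR, with -0.46 in the trend-adjusted fit). Bard1 had 5.14, 5.23, 5.63 and 5.91 FPKM and a log2 fold change of 0.18 (adjusted p = 0.067 by edgeR), and it rose by 0.49 in the trend-adjusted fit (adjusted p = 1.5e-05) and by 0.21 with upper quartile scaling. The ratio of Brca1 to Bard1 was 2.502 and 2.565 in shCtrl and 1.34 and 1.29 in shUSP9X. Brip1, a helicase that binds BRCA1, fell with a log2 fold change of -0.78 (adjusted p = 8.3e-09 by edgeR), but its value was 0.06 in the trend-adjusted fit (adjusted p = 0.54), so that its fall was lost there and turned in sign. Of the 5 genes of the BRCA group 3 fell, 0 rose and 2 did not pass, beside 33.6% and 33.8% of all genes, and in the trend-adjusted fit 2 fell and 1 rose.

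The genes that act on break ends moved apart. MRE11 is the nuclease of the MRN complex, RAD50 its ATPase that tethers the ends, NBN the subunit that recruits ATM, and CtIP, encoded by Rbbp8, the cofactor that switches on the nuclease. Rad50 (chr11:53649519-53707319, minus strand) had 21.01, 20.78, 4.61 and 4.82 FPKM, a 4.37-fold lower level in shUSP9X (log2 fold change -2.13, SE 0.066, adjusted p = 4.9e-20 by edgeR, with -1.79 in the trend-adjusted fit). Nbn had 23.4, 23.6, 13.9 and 13.5 FPKM and fell with a log2 fold change of -0.83 (SE 0.071, adjusted p = 8.1e-11 by edgeR, with -0.67 in the trend-adjusted fit). Mre11a (chr9:14784654-14837123, plus strand) went the other way. It had 25.4, 23.1, 34.4 and 33.8 FPKM and rose with a log2 fold change of 0.34 (SE 0.060, adjusted p = 2.2e-05 by edgeR, with 0.65 in the trend-adjusted fit).

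In shCtrl the 3 subunits lay between 20.78 and 25.4 FPKM, and in shUSP9X they were spread from 4.61 to 34.4. Rad50 stood at 0.827 and 0.900 of the Mre11a FPKM in the shCtrl libraries and at 0.134 and 0.143 in the shUSP9X libraries. The difference between their log2 fold changes was -2.46, and it was -2.44 in the trend-adjusted fit. Rbbp8 had 21.8, 22.9, 5.76 and 5.31 FPKM, with a log2 fold change of -1.96 (SE 0.081, adjusted p = 2.5e-17 by edgeR, with -1.42 in the trend-adjusted fit). Exo1, the exonuclease that extends the trimmed ends, rose with a log2 fold change of 0.24 (SE 0.058, adjusted p = 8.0e-04 by edgeR, with 0.62 in the trend-adjusted fit). For ratios of single genes, 2 libraries against 2 allow no permutation test below p = 0.333 (exact, two-sided), and none was made.

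**Figure D2:**
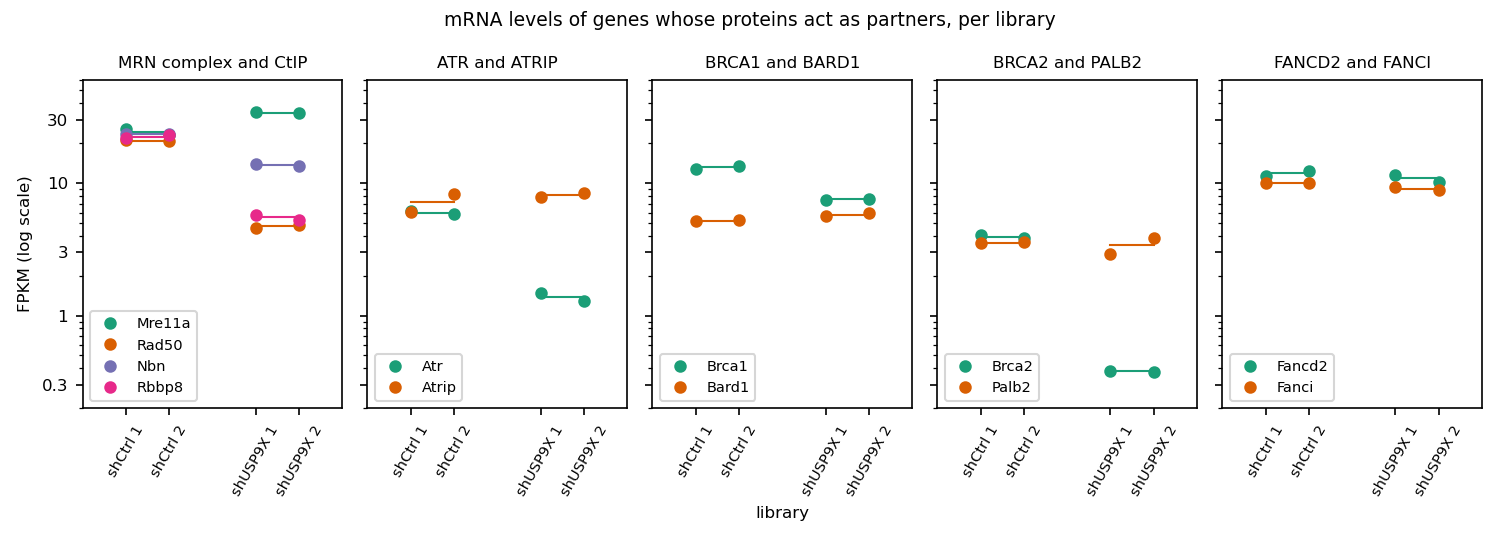
FPKM (log scale, vertical axis) in each of the 4 libraries for genes whose proteins act together, with a line at the mean of each group's 2 libraries. Mre11a, Rad50, Nbn and Rbbp8 lie together between 20.78 and 25.4 FPKM in shCtrl and spread from 4.61 to 34.4 in shUSP9X, while Fancd2 and Fanci stay close to each other.

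The genes of both upstream damage kinases fell, and the partner of ATR did not pass. ATM is the kinase activated at double-strand breaks, and ATR, held by ATRIP on single-stranded DNA and switched on by TOPBP1, the kinase of stalled forks. Atm (chr9:53439149-53536740, minus strand) had 1352, 1235, 313 and 317 counts, or 8.002, 8.175, 1.70 and 1.90 FPKM. Its log2 fold change was -2.18 (SE 0.081, adjusted p = 2.4e-18 by edgeR, with -1.22 in the trend-adjusted fit), a 4.52-fold lower level with no overlap between the groups. Atr (chr9:95857597-95951781, plus strand) had 6.12, 5.80, 1.49 and 1.29 FPKM and a log2 fold change of -2.07 (SE 0.10, adjusted p = 6.7e-16 by edgeR, with -1.10 in the trend-adjusted fit).

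Atrip had 6.004, 8.293, 7.85 and 8.44 FPKM and a log2 fold change of 0.16 (adjusted p = 0.22 by edgeR, with -0.05 in the trend-adjusted fit), and its groups overlapped. Without shCtrl replicate 2 it passed at 0.30, but its lowest value with 1 library left out was 0.025. The ratio of Atr to Atrip FPKM was 1.02 and 0.699 in shCtrl and 0.189 and 0.153 in shUSP9X. The difference between their log2 fold changes was -2.226, but only -1.055 in the trend-adjusted fit. Topbp1 had the highest level of the 37 genes in every library, with 71.5, 80.2, 37.9 and 37.2 FPKM, and its log2 fold change was -0.86 (SE 0.040, adjusted p = 2.6e-16 by edgeR, with -0.62 in the trend-adjusted fit). Of the effector kinases, Chek1, downstream of ATR, fell with a log2 fold change of -0.66 (adjusted p = 2.6e-06 by edgeR), which was lost in the trend-adjusted fit (-0.08, adjusted p = 0.51). The fall of Chek1 also did not pass in limma on all genes with any FPKM above 0, with a pseudocount of 1. Chek2, downstream of ATM, had a log2 fold change of -0.16 (adjusted p = 0.091 by edgeR, also -0.16 in the trend-adjusted fit) from counts, and it passed with scaling by library size alone (-0.19) and in the fits on FPKM, at -0.53 with the lower pseudocount of 0.1. Of the 6 genes of this group 4 fell and 0 rose, beside 33.6% and 33.8% of all genes, and in the trend-adjusted fit 3 fell and 0 rose.

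Of the 8 genes of the Fanconi core complex, anchor included, 3 fell (37.5%), 2 rose (25%) and 3 did not pass, beside 33.6% and 33.8% of all genes. In the trend-adjusted fit 2 fell and 1 rose. FANCM is the translocase that anchors the complex on DNA, FANCL its ubiquitin ligase, and the others hold it together. Fancm (chr12:65075603-65132058, plus strand) had 622, 533, 249 and 213 counts, and its log2 fold change was -1.46 (SE 0.10, adjusted p = 1.4e-12 by edgeR, with -0.94 in the trend-adjusted fit). Its FPKM of 4.64, 11.5, 2.36 and 4.55 did not follow the counts between replicates, and its fall did not pass in limma on FPKM (-0.96 with a pseudocount of 1). Fance, which contacts FANCD2, had 5.33, 6.71, 8.50 and 10.1 FPKM and the largest rise of the 37, with a log2 fold change of 0.69 (SE 0.14, adjusted p = 8.5e-05 by edgeR, with 0.46 in the trend-adjusted fit).

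Fanca, with the highest mean FPKM of the core genes over all 4 libraries, although Fancb was higher in shCtrl (mean 9.05 against 8.51), had 7.83, 9.18, 9.67 and 9.35 FPKM and a log2 fold change of 0.20 (SE 0.082, adjusted p = 0.034 by edgeR). This small rise did not pass in the trend-adjusted fit (0.07), with DESeq2, on FPKM, with scaling by library size alone or without shCtrl replicate 1, shUSP9X replicate 1 or shUSP9X replicate 2 (0.09, 0.17 and 0.22). Fancb fell with a log2 fold change of -0.51 (adjusted p = 8.7e-05 by edgeR), which was lost in the trend-adjusted fit (-0.05). Fancg fell with a log2 fold change of -0.40 (adjusted p = 0.013 by edgeR, with -0.59 in the trend-adjusted fit), and did not pass with DESeq2 or without shUSP9X replicate 2 (-0.36). Fancc, Fancf and Fancl had log2 fold changes of -0.02, -0.16 and -0.27 (-0.19, -0.46 and 0.20 in the trend-adjusted fit) and did not pass in either. Fancl was -0.54 without shUSP9X replicate 1 and -0.06 without shUSP9X replicate 2.

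The clamp that the core complex modifies did not pass the test. Fancd2 had 11.4, 12.4, 11.6 and 10.1 FPKM with overlapping groups and a log2 fold change of -0.08 (SE 0.070, adjusted p = 0.32 by edgeR), and it rose by 0.19 in the trend-adjusted fit (adjusted p = 0.019). Fanci had 9.957, 10.04, 9.37 and 8.82 FPKM and a log2 fold change of -0.10 (SE 0.073, adjusted p = 0.25 by edgeR, with 0.04 in the trend-adjusted fit). The ratio of Fancd2 to Fanci was 1.14 and 1.23 in shCtrl and 1.24 and 1.15 in shUSP9X, so the groups overlapped.

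Among Rad51b, Rad51c, Rad51d, Xrcc2 and Xrcc3, whose products assist strand exchange, 1 of 5 genes fell (20%), 1 rose (20%) and 3 did not pass, beside 33.6% and 33.8% of all genes. Rad51c had 6.83, 6.88, 3.90 and 4.04 FPKM and a log2 fold change of -0.52 (SE 0.14, adjusted p = 0.0026 by edgeR), which was lost in the trend-adjusted fit (-0.23, adjusted p = 0.17). Xrcc2 rose with a log2 fold change of 0.42 (SE 0.098, adjusted p = 4.8e-04 by edgeR, with 0.45 in the trend-adjusted fit). Rad51d, with the highest FPKM of these genes (9.75, 10.8, 11.9 and 12.4), had a log2 fold change of 0.21 (adjusted p = 0.081 by edgeR, with 0.07 in the trend-adjusted fit). It passed with upper quartile scaling (0.25), in limma on FPKM of at least 1 (0.23 with a pseudocount of 1) and without shCtrl replicate 2 (0.35), and was 0.09 without shCtrl replicate 1. Rad51b and Xrcc3 had values of -0.44 (-0.41 in the trend-adjusted fit) and -0.18, and Xrcc3 fell in the trend-adjusted fit (-0.43, adjusted p = 0.024).

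The annealing protein gene Rad52 (-0.22, adjusted p = 0.33 by edgeR) and the motor protein gene Rad54l (-0.18, adjusted p = 0.089) did not pass, and both fell in the trend-adjusted fit (-0.46 and -0.26). Rad54l also passed without shCtrl replicate 1 (-0.25) or shUSP9X replicate 1 (-0.28). Rad54b had 17.5, 14.4, 11.5 and 12.4 FPKM and a log2 fold change of -0.26 (SE 0.086, adjusted p = 0.0092 by edgeR). That fall did not pass with DESeq2, in the trend-adjusted fit (-0.04) or without shCtrl replicate 1 (-0.16).

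The helicase genes that act on recombination intermediates both fell. Blm, whose product dissolves double Holliday junctions, had 15.7, 16.2, 7.68 and 8.72 FPKM and a log2 fold change of -0.91 (SE 0.069, adjusted p = 8.5e-12 by edgeR, with -0.53 in the trend-adjusted fit). Wrn, a helicase and exonuclease gene, had 4.17, 4.04, 1.89 and 2.15 FPKM and a log2 fold change of -1.07 (SE 0.12, adjusted p = 8.0e-09 by edgeR, with -0.35 in the trend-adjusted fit, adjusted p = 0.0097). Slx4, the scaffold of the unhooking nucleases, had 14.6, 13.8, 16.4 and 14.9 FPKM and a log2 fold change of 0.19 (adjusted p = 0.063 by edgeR, with 0.11 in the trend-adjusted fit). It passed with upper quartile scaling (0.22), with nearly no filter on low counts (0.20), and without shCtrl replicate 2 or shUSP9X replicate 2 (0.25 and 0.26). Its lowest value with 1 library left out was 0.10.

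The genes that fell, except Fancg (22.4%), held more than 25.6% coding adenine, the middle of 10 equal bins of all genes. So did some genes that did not pass, such as Palb2 (28.5%), and Mre11a (29.4%) and Exo1 (27.8%), which rose. This property was examined after the values were seen. The coding sequences of Rad50, Rbbp8, Nbn and Brca2 held 36.3, 34.7, 34.0 and 33.7% adenine, and those of Fance and Fancf 18.2 and 14.3%. Spearman's rho between coding adenine content and log2 fold change was -0.77 across the 37 genes and -0.35 across 11388 genes, with the same 4 libraries behind every point. In the trend-adjusted fit it was -0.46 and -0.08. For GC content of the coding sequence rho was 0.79 and 0.38, with 0.43 and 0.05 in the trend-adjusted fit. For adenine in the whole transcript it was -0.76 and -0.44, with -0.46 and -0.095 in the trend-adjusted fit. Adenine was therefore not told apart here from the GC content described above. Of 10 equal bins of all genes, the bin with the most adenine (31.8 to 46.8%) had a median log2 fold change of -0.83, and of -0.38 in the trend-adjusted fit. Mre11a, at 29.4% adenine, rose while Fancm, at 29.9%, Atr, at 30%, and Atm, at 30.3%, fell. Rad51c, Topbp1 and Fancb held slightly less than Mre11a, 29.05, 29.09 and 29.35%, and also fell.

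**Figure D3:**
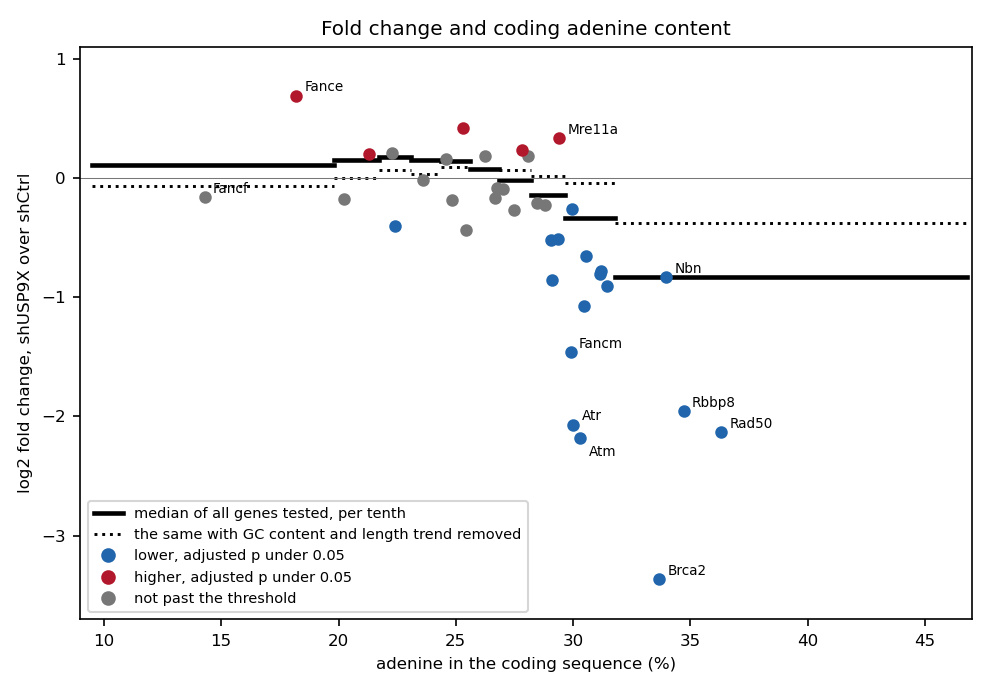
The log2 fold change (vertical axis) of the 37 genes against the share of adenine in their coding sequence (horizontal axis), each point being 1 gene coloured by its test. Black bars mark the median of all genes tested in each of 10 bins of adenine content, and dotted bars the same with the trend on GC content and length removed, and Rad50, Rbbp8 and Brca2 lie below the bar of their bin.

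To show how these messages differ, the 90 coding bases with the most adenine, in frame and with adenine in capitals, are given for Brca2 and Rad50, which fell, and for Mre11a and Fance, which rose. These 4 genes were chosen after their values were seen. Their coding sequences hold 9987 (Brca2), 3936 (Rad50), 2037 (Mre11a) and 1578 bases (Fance). A longer sequence offers more stretches to choose from, and the numbers of adenines were not adjusted for that. The sequences come from GENCODE M21 on GRCm38. The Brca2 stretch lies in exon 11 of 27 (chr5:150540529-150540618, plus strand), holds 47 adenines and is part of that gene's longest exon of 4809 bases. The Rad50 stretch joins exons 17 and 18 of 25 (minus strand) and holds 50. The Mre11a stretch joins exons 7 and 8 of 19 (plus strand) and holds 38, and the Fance stretch lies in exon 2 of 10 (chr17:28315906-28315995, plus strand) and holds 31.
Brca2: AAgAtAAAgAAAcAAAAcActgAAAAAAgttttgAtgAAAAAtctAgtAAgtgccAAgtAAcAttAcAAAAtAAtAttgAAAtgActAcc
Rad50: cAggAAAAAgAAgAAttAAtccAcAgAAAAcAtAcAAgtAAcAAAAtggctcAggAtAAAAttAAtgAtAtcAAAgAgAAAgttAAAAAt
Mre11a: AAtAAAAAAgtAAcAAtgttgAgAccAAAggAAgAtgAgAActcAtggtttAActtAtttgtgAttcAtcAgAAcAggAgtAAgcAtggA
Fance: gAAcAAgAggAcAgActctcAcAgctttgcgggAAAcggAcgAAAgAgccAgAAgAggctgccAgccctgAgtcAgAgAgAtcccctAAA

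Promoter words known from cell cycle genes were counted in windows of 250 bases before to 50 after each RefSeq start (GRCm38.p6), on both strands. A window was found for 28 of the 37 genes. An E2F word (TTTCCCGC, TTTGGCGC, TTTCGCGC or TTTGCCGC) stood in the windows of 6 of them (21.4%), which were Fancg, Bard1, Brca2, Rad51c, Chek2 and Topbp1, against 4.89% of 9098 tested genes with a window and 2.26% of all windows. It was found in 4 of 12 genes that fell, 0 of 3 that rose and 2 of 13 that did not pass. A CHR word (TTTGAA or TTCGAA) stood in 3 of the 28 (10.7%), Bard1, Rad51b and Atr, against 16.4% of tested genes and 19.2% of all windows. No CHR word is contained in an E2F word. A match is a description of the letters and not a binding site.

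The 250 bases before the start are shown for 3 genes that fell and hold an E2F word, in capitals on either strand, and for Mre11a, which rose and holds none. The word starts 168 bases before the start in Brca2 (chr5:150522371-150522620, plus strand), 129 in Topbp1 (chr9:103305077-103305326, plus strand) and 52 in Fancg (chr4:43010302-43010551, minus strand). The Mre11a stretch is chr9:14784404-14784653 on the plus strand. All are written along the strand of the gene. The starts used here are those of RefSeq. In GENCODE M21 Topbp1 starts at chr9:103305215 and Fancg at chr4:43010506. Part of each of these stretches, and the word of Fancg, therefore lie inside the gene as annotated there.
Brca2: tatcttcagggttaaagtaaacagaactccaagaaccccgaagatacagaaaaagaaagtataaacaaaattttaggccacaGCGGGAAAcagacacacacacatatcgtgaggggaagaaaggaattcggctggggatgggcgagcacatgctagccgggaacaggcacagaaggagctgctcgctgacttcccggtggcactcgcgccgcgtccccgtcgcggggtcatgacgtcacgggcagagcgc
Topbp1: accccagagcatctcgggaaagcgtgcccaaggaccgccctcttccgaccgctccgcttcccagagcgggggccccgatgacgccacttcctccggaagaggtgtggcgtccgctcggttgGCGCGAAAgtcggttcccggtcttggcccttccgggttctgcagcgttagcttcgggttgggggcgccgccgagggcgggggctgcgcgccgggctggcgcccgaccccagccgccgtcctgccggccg
Fancg: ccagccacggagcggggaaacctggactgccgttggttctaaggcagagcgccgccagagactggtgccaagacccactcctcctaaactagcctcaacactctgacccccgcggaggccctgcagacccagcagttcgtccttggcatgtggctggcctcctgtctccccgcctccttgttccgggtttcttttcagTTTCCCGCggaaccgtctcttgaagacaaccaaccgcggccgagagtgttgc
Mre11a: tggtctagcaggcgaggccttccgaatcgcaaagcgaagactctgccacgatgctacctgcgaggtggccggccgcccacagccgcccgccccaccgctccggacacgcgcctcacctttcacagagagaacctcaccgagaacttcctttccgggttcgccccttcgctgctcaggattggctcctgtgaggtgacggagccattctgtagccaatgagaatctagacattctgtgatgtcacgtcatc

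Some of the 37 genes share a start region with a neighbour on the opposite strand. With starts within 1000 bases in GENCODE M21, 14 such protein-coding neighbours were found and 12 were tested. The start of Mre11a lies 202 bases from that of Ankrd49, which had 389, 308, 149 and 157 counts and fell with a log2 fold change of -1.32 (SE 0.13, with -0.66 in the trend-adjusted fit), while Mre11a rose. Atm and Npat, a histone gene coactivator whose start lies 307 bases away, both fell (-2.18 and -1.67, with -1.22 and -0.78 in the trend-adjusted fit). Brca1 and the autophagy receptor gene Nbr1 also both fell (-0.80 and -0.54, with -0.46 and -0.43 in the trend-adjusted fit). Fancb and Mospd2 both fell (-0.51 and -1.14), but in the trend-adjusted fit the fall of Fancb was lost (-0.05) and that of Mospd2 was -0.42. Next to Rad54l, which did not pass, Pomgnt1 rose by 0.95 (SE 0.062, with 0.71 in the trend-adjusted fit), and next to Wrn, which fell, Purg had 0.05 (SE 0.40) and did not pass. Beside Fancd2, Palb2 and Rad51b, which did not pass, Emc3, Dctn5 and Zfyve26 rose by 0.221, 0.207 and 0.255. In the trend-adjusted fit their values were 0.036, 0.059 and 0.501. Zfyve21, next to Xrcc3, fell (-0.66, with -0.99 in the trend-adjusted fit), and Hscb, next to Chek2, did not pass. Of all genes tested 33.6% fell and 33.8% rose. The start of Mre11a overlaps that of Ankrd49, and the start of Fancf that of Gas2, which did not pass. The library kit as named does not mark the strand, so reads from such a shared stretch cannot be told apart.

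**Figure D4:**
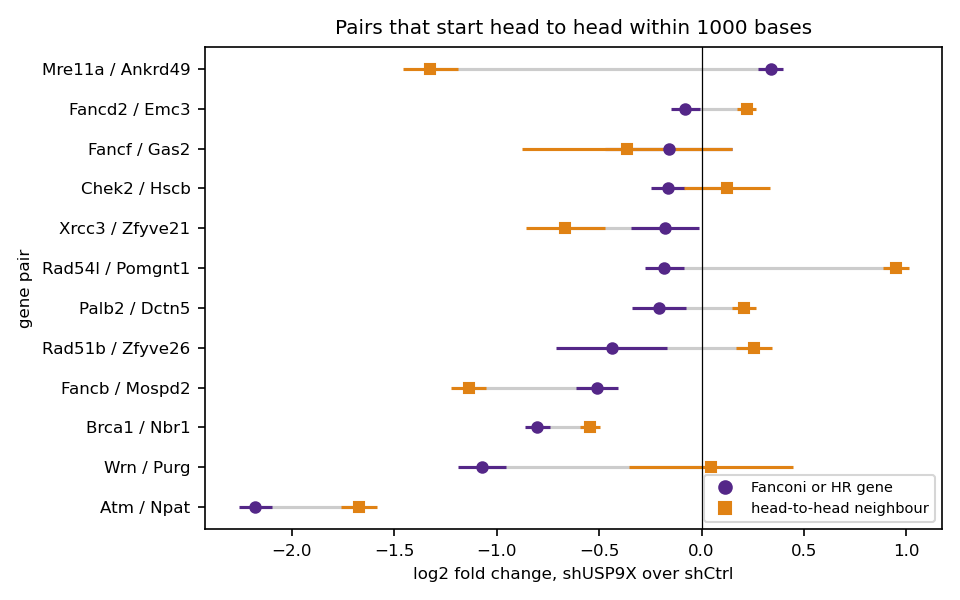
The log2 fold change (horizontal axis) of each Fanconi or recombination gene (circles) and of its head-to-head neighbour (squares), with standard errors from edgeR, for the 12 pairs tested. Atm and Npat both lie to the left, and Mre11a and Ankrd49 lie on opposite sides of 0.

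Other genes of the same pathways were counted from lists chosen by name, and each count is to be read beside the 33.6% of all genes that fell and the 33.8% that rose, or 29.7% and 32.7% in the trend-adjusted fit. Of 12 other Fanconi and crosslink-unhooking genes 2 fell, 7 rose and 3 did not pass, and in the trend-adjusted fit 2 fell and 5 rose. Usp1, whose product removes ubiquitin from FANCD2, fell with a log2 fold change of -0.60 (SE 0.049, adjusted p = 3.3e-11 by edgeR, with -0.33 in the trend-adjusted fit). Mad2l2, a subunit of the translesion polymerase zeta, had the largest rise of this list (0.70, SE 0.11, adjusted p = 3.2e-06, with 0.38 in the trend-adjusted fit). Of 8 genes for resolving or dissolving junctions 2 fell, 2 rose and 4 did not pass, and in the trend-adjusted fit 3 fell and 0 rose. Gen1, a resolvase gene, fell with a log2 fold change of -1.32 (-0.51 in the trend-adjusted fit) and Mus81, another nuclease gene, rose by 0.46, which did not pass in the trend-adjusted fit (0.18).

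Of 20 genes of the BRCA1-A complex and other recombination mediators 8 fell, 4 rose and 8 did not pass. In the trend-adjusted fit 6 fell and 5 rose, and 2 genes that had fallen rose there, Sem1 (-0.16 and then 0.75) and Fignl1 (-0.28 and then 0.13). Bod1l, which protects stalled forks, had 2199, 1887, 194 and 199 counts and a log2 fold change of -3.52 (SE 0.080, adjusted p = 6.9e-23 by edgeR, with -2.77 in the trend-adjusted fit), beside -3.36 for Brca2. Rpa2, a subunit of the single-strand binding complex, rose by 0.72 (SE 0.065, adjusted p = 1.9e-10, with 0.49 in the trend-adjusted fit). Of 11 genes of the ATR clamp and chromatin signalling 5 fell, 3 rose and 3 did not pass, and in the trend-adjusted fit 5 fell and 4 rose. Etaa1, which activates ATR apart from TOPBP1, fell with a log2 fold change of -1.86 (SE 0.12, adjusted p = 1.3e-13, with -1.10 in the trend-adjusted fit), and Rad9a, a subunit of the clamp, rose by 0.61 (0.35 in the trend-adjusted fit). Over these 4 lists together 17 of 51 genes fell (33.3%), 16 rose (31.4%) and 18 did not pass, about the shares of all genes. In the trend-adjusted fit 16 fell and 14 rose. The median log2 fold change was 0.07, and 0.03 in the trend-adjusted fit.

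Of 19 end joining and PARP genes 8 fell, 4 rose and 7 did not pass, and in the trend-adjusted fit 7 fell and 4 rose. Prkdc, the DNA-dependent protein kinase gene, had 616, 612, 204 and 168 counts and a log2 fold change of -1.87 (SE 0.11, adjusted p = 2.0e-14 by edgeR, with -0.89 in the trend-adjusted fit), while Xrcc6, which encodes a subunit of its Ku partner, rose by 0.40 (SE 0.050, adjusted p = 1.1e-07, with 0.21 in the trend-adjusted fit). Lists of cell cycle genes were counted as well. Of 21 proliferation markers 4 fell (19.0%), 14 rose (66.7%) and 3 did not pass, and in the trend-adjusted fit 4 fell and 16 rose, with Mki67 at 15778, 13287, 789 and 676 counts (-4.45, with -3.81 in the trend-adjusted fit) and the cyclin gene Ccne1 at 204, 208, 569 and 416 (1.11, with 0.86 in the trend-adjusted fit). Of 19 E2F and DREAM regulators, which control many S phase genes, 6 fell (31.6%), 8 rose (42.1%) and 5 did not pass, beside 33.6% and 33.8% of all genes, with Rb1 at -1.51 (-0.84 in the trend-adjusted fit) and Mybl2 at 0.84 (0.65). In the trend-adjusted fit 6 fell and 8 rose.

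**Figure D5:**
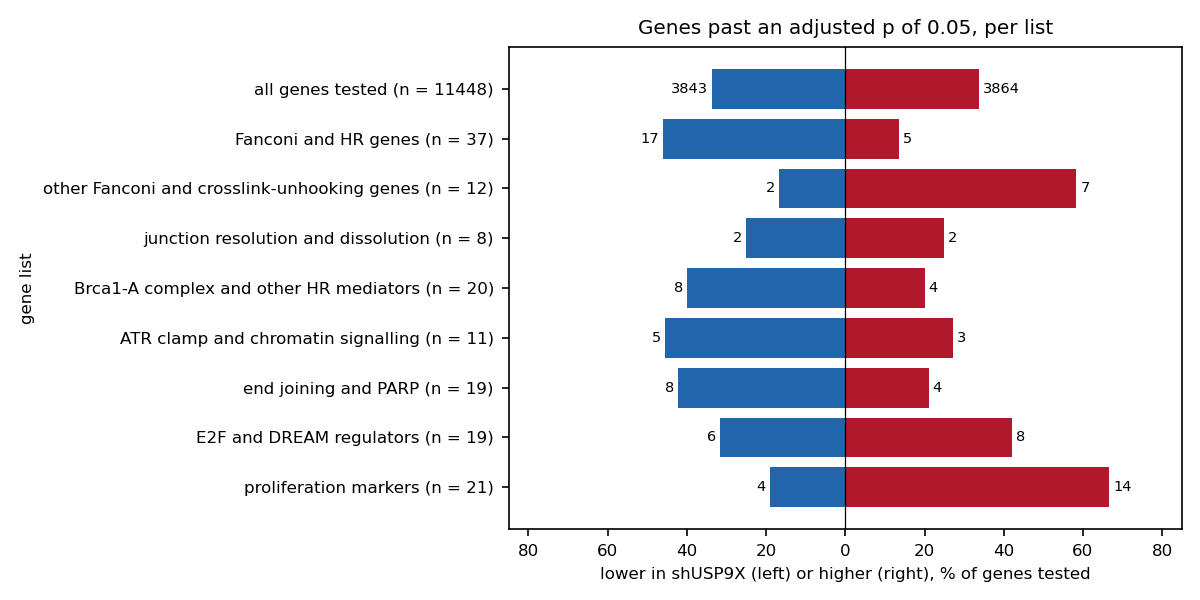
The share of genes in each list that was lower (left) or higher (right) in shUSP9X at an adjusted p under 0.05 by edgeR, in percent of the genes tested, with the number of genes at each bar. The 37 genes have 17 to the left and 5 to the right, and the proliferation markers 4 and 14.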

How the data were processed

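RNA from 2 shCtrl and 2 shUSP9X libraries of ID8 cells was enriched with oligo(dT), prepared with a NEBNext Ultra kit and sequenced on a NovaSeq instrument. The authors mapped reads to GRCm38 and deposited, per gene and library, an estimated count that is not normalized (6.40 to 6.69% of values are not whole numbers) and an FPKM scaled for length and library size. Per the labels, the submitters' processing notes name fastp 0.18.0, Bowtie2 2.2.8, HISAT2, StringTie 1.3.1 and RSEM. The study's methods also name DESeq2.

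Estimated counts were rounded to whole numbers. After filterByExpr and TMM scaling, edgeR 4.0.16 under R 4.3.3 gave a quasi-likelihood F test per gene, with Benjamini-Hochberg adjustment over 11448 genes and no replicate block. The standard error was the log2 fold change divided by the square root of the F statistic. The common biological coefficient of variation was 0.0352. Replicates differed by more than sampling noise (chi-square per gene 3.41 in shCtrl and 2.23 in shUSP9X). Molecular identifiers are not described, so errors of single counts cover counting error only. The offset on GC content and length used a loess of span 0.3, with values from GENCODE M21 for 99.8% of genes. FPKM was used for levels between genes, and limma 3.58.1 and DESeq2 1.42.0 for alternatives.

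The genes, lists and tests were chosen with earlier results of these data known. Full values were given for members with a log2 fold change of at least 1 in size and, in each role group, for the member with the largest change and that with the highest mean FPKM. Named genes of other lists were the largest rise and fall, and other genes named were chosen after their values were seen. Protein sequences were not analysed here. Some genes are not reported here.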

Additional observations from a re-analysis of the deposited data

How the results depend on the processing

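Over 16 alternative fits, 14 of the 22 genes called kept their call and direction in every fit, and 17 did so in the fits without the offset on GC content and length. The count of the 37 genes that fell was between 15 and 18 in these fits and 13 at the study's cutoff. The count that rose was 5 and became 8 with upper quartile scaling, and 4 to 8 with any 1 library left out, where 8 was without shCtrl replicate 2. At the study's cutoff, put on the unadjusted p of edgeR, 2143 genes fell and 1233 rose in all, and 1 of the 37 rose. Deviations from the group mean were hardly correlated between same-numbered libraries (r = -0.045 over 11448 genes). This cannot show whether the libraries were prepared in pairs. With a replicate block 17 of the 37 fell and 5 rose, and 3810 and 3855 of all genes. The values below turned in sign. With the offset, alone and then with the replicate block, these were Fancl (0.198 and 0.187), Fancd2 (0.188 and 0.185), Fanci (0.036 and 0.036), Brip1 (0.063 and 0.062) and Atrip (-0.045 and -0.041). With upper quartile scaling Fancc became 0.016. With 1 library left out, Fancc ranged from -0.114 (without shUSP9X replicate 2) to 0.082 (without shUSP9X replicate 1), Fancf from -0.576 (without shCtrl replicate 1) to 0.405 (without shCtrl replicate 2), Fancd2 from -0.190 (without shUSP9X replicate 1) to 0.016 (without shUSP9X replicate 2) and Rad52 from -0.495 (without shUSP9X replicate 1) to 0.022 (without shCtrl replicate 1). The cause of these turns was not tested. In fits that left out a library, the lone library was assumed to vary like the other group. Fancf, Rad51b and Fancl had at most 115 counts in any library, which limits what could be detected there.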
